A study of Homo sapiens with 4 samples.

Results

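The genes described here are 10 components and targets of bone morphogenetic protein (BMP) signalling, namely the ligands BMP2 and BMP4, the receptors BMPR1A and BMPR2, the inhibitory SMAD6, the secreted antagonist GREM1 and the inhibitor of DNA binding genes ID1, ID2, ID3 and ID4. They were taken by symbol from the annotation of the arrays, and all 10 were found, with 11 probes among the 32886 gene probes used (20389 gene symbols). After knockdown of SOX2 none of the 10 probes above background differed by 2-fold, against 2.61% of all probes above background. BMP4 had the largest difference, with a mean signal 0.628 times that of mock knockdown, and its groups did not overlap. The signals of ID1 and ID2 were higher on both knockdown arrays than on both mock arrays, at 1.19 and 1.28 times the mock mean. ID3 (1.19 times) and ID4 (0.924 times) overlapped between groups. Over all 21256 probes above background, groups did not overlap with knockdown higher for 21.2% and with knockdown lower for 25.8%. No member passed an adjusted p of 0.05 in limma, and neither did any other of the 21256 probes.

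BMPs are secreted ligands of the TGF-beta superfamily. They bind complexes of type I and type II serine/threonine kinase receptors, which phosphorylate the receptor SMADs, and these enter the nucleus with SMAD4 to regulate transcription. The ID genes are well known direct targets of this route, and their products lack a DNA-binding region and hold basic helix-loop-helix (bHLH) partners away from DNA. In glioblastoma, BMPs are known for driving stem-like cells towards an astrocytic state, and ID proteins for their link with the undifferentiated state.

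The series measured total RNA of LN229, an established human glioblastoma cell line, on 1-colour chemiluminescent oligonucleotide arrays, with 2 arrays of SOX2 knockdown and 2 of mock knockdown. All cells were cultured in DMEM and transiently transfected, the knockdown group with siRNA against SOX2 and the mock group with a control siRNA without a target, and the methods describe the arrays of a group as separate transfections of that single line. The comparison asks which transcripts differ when SOX2, an HMG-box transcription factor of stem cells, is reduced. In such bulk RNA, fewer cells of a kind and less RNA per cell cannot be told apart.

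Each signal is expressed as a multiple of its own array's 75th percentile, and a probe was kept where both arrays of either group exceeded 3 in signal-to-noise ratio (S/N), which left 21256 probes. S/N was over 3 for 63.8% to 69.4% of the probes per array, and precision is limited by having 2 arrays in each group. The probe of SOX2 itself read 0.467 and 0.701 in mock and 0.209 and 0.149 in knockdown. The knockdown mean was 0.307 times the mock mean, with a log2 change of -1.69 (SE 0.28, limma adjusted p = 0.117), and S/N on the knockdown arrays was 3.17 and 3.06. Because the treatment text of the labels names SW620, a colon line, while their other fields name LN229, marker lists of both were read. Of 10 genes typical of glioma or mesenchymal lines 9 had S/N over 3 on all 4 arrays, with summed signals of 279 to 348 in mock and 276 to 291 in knockdown. FN1 passed that S/N on 2 arrays, and GFAP counted by 1 of its probes, which read 0.18 to 0.314. Of 10 colon epithelial genes 2 had S/N over 3 on all 4 arrays (VIL1 by 1 of its probes, and TFF3). The brighter TFF3 probe read 0.248 to 0.582. Sums over the colon list were 0.606 to 0.624 in mock and 0.499 to 0.997 in knockdown. EPCAM, CDX1, CDX2, LGALS4, CEACAM5 and GPA33 passed that S/N on 1 or 2 arrays, and CDH1 and KRT20 on none.

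Upstream sequences of the 4 ID genes, as the target genes of the route, and of BMP4, as the member with the largest difference, are shown first. RefSeq promoter entries on GRCh38.p14 were matched by symbol for 9 of the 10 members, all but BMP2, and only the 250 bases before the annotated start are printed, 5′ to 3′ on the strand of the gene. Capitals mark letters that match 1 of 5 short motifs on either strand, GGCGCC and CAGAC (SMAD-type), CTTTGT and CATTGT (SOX-type) and TATAA (TATA-type). For BMP4, which has 3 entries, the window of the outermost start was taken.
ID1, chr20:31605039-31605288, plus strand: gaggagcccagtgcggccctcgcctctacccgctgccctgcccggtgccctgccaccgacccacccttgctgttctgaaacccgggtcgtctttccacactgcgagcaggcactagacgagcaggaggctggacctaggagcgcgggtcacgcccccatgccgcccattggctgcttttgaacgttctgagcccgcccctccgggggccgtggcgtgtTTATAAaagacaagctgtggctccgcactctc
ID2, chr2:8681806-8682055, plus strand: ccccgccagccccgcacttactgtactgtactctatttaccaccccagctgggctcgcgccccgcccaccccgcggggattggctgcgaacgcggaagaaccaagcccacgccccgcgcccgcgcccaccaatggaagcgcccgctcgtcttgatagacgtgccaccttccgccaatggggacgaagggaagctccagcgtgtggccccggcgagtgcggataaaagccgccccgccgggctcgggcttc
ID3, chr1:23559502-23559751, minus strand: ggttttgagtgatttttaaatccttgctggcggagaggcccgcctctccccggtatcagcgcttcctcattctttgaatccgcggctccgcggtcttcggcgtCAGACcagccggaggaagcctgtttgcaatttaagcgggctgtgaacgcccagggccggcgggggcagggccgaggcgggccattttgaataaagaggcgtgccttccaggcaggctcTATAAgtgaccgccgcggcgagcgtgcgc
ID4, chr6:19837120-19837369, plus strand: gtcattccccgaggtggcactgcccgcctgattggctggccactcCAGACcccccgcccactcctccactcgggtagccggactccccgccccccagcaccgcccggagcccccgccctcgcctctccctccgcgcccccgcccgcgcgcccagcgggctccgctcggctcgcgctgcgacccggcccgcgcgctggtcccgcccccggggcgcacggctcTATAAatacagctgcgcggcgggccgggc
BMP4, chr14:53955051-53955300, minus strand: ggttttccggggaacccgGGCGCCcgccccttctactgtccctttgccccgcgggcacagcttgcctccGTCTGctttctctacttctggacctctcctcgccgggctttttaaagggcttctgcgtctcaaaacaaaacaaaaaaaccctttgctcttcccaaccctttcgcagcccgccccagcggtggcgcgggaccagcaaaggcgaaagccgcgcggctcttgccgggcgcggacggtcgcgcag

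A TATAA match began 29 bases before the start in both ID3 and ID4, and in ID1 the letters TTATAA, which match on both strands at overlapping positions, began 32 bases before it. ID2 held none of the 5 motifs. CAGAC matched once each in ID3, ID4 and BMP4 (as its reverse GTCTG in BMP4), and GGCGCC matched once in BMP4. Neither SOX-type motif matched in these 5 windows, and among the 9 member windows GREM1 was the only 1 with CTTTGT. Over all 35116 windows of this length the share with a match was 18.9% for TATAA, 38% for CAGAC, 16.4% for GGCGCC, 13.7% for CTTTGT and 9.29% for CATTGT. The bases G and C made up 62% to 78.8% of the ID windows, against a median of 58% over all windows. These matches describe letters in the windows, and SOX2 or SMAD binding was not analysed here.

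BMP4, a ligand that acts through BMPR1A and BMPR2, was measured by 1 probe (gene ID hCG20967.2) with S/N over 3 on all 4 arrays. It read 0.724 and 0.859 in mock and 0.499 and 0.495 in knockdown. Both knockdown signals were below both mock signals, and they lay closer together than the mock pair. The means were 0.792 ± 0.0952 (SD, n = 2) for mock and 0.497 ± 0.00264 (SD, n = 2) for knockdown. The log2 change was -0.67 (SE 0.15, 95% interval -1.06 to -0.27), with an unadjusted limma p of 0.00846 and an adjusted p of 0.156 over the probes kept. A change of this size or larger, in either direction, was seen for 7.99% of all probes kept.

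BMP2, the other ligand of the set, read 0.327 and 0.212 in mock and 0.266 and 0.225 in knockdown. Here the groups overlapped, with both knockdown signals inside the range of the mock pair, and the log2 change was -0.11 (SE 0.26, 95% interval -0.79 to 0.58, limma adjusted p = 0.912). The interval of BMP2 thus spans changes as large as that of BMP4, and a difference between the ligands was not tested. The sign for BMP2 turned when mock replicate 1 (log2 change 0.2) or knockdown replicate 2 (0.01) was left out.

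Both probes of BMPR1A, the type I receptor shared by BMP2 and BMP4, read lower after knockdown. They carry the same gene ID (hCG1994050), and the second is also annotated to LOC283155, so its signal may come from either transcript. The probe annotated to BMPR1A alone read 0.0957 and 0.0799 in mock and 0.0653 and 0.0587 in knockdown. It was dim, with S/N of 4.21 to 10.56 on the 4 arrays, and the groups did not overlap. Its mean ratio was 0.706 and its log2 change -0.50 (SE 0.16, 95% interval -0.92 to -0.07). The unadjusted limma p of this probe was 0.0305 and the adjusted p 0.238. With normexp background correction of the raw reading this log2 change was -0.17.

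The shared BMPR1A probe read 0.809 and 0.696 in mock and 0.684 and 0.572 in knockdown. The knockdown signals were the lower ones, though the upper of them lay just under the lower mock signal. The mean ratio was 0.835 and the log2 change -0.26 (SE 0.17, 95% interval -0.71 to 0.18, limma adjusted p = 0.53). The probes of BMPR1A thus gave the same direction, and a difference in size was not tested. With normexp the shared probe had the larger change, at -0.27. With both averaged by gene ID the log2 change was -0.28, where the averaged signal came mostly from the brighter shared probe.

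BMPR2, the type II receptor that activates BMPR1A, read 0.538 and 0.658 in mock and 0.766 and 0.633 in knockdown. Knockdown replicate 1 was the highest of the 4 and replicate 2 fell within the mock range, so the groups overlapped. The mean ratio was 1.17, with a log2 change of 0.23 (SE 0.18, 95% interval -0.26 to 0.71, limma adjusted p = 0.64).

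SMAD6, an inhibitory SMAD that is itself induced by BMPs and limits receptor signalling, read 0.241 and 0.206 in mock and 0.254 and 0.257 in knockdown. The knockdown signals were both higher, the nearer mock array being close to them. The mean ratio was 1.14 and the log2 change 0.19 (SE 0.14, 95% interval -0.19 to 0.58, limma adjusted p = 0.6). GREM1, a secreted protein that binds BMPs and keeps them from their receptors, gave S/N values of -0.94 and -0.49 in mock and -1.44 and -1.91 in knockdown. GREM1 was therefore not above background on any array, it was not kept, and no fold is given.

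ID1 read 6.48 and 7.67 in mock and 8.11 and 8.73 in knockdown. All S/N values of this probe were 95.62 or above, and the knockdown signals exceeded both mock signals. The means were 7.07 ± 0.842 (SD, n = 2) and 8.42 ± 0.438 (SD, n = 2), a ratio of 1.19. The gap between the upper mock array and the lower knockdown array was smaller than the gap within the mock pair, and the log2 change of 0.26 had an interval that includes 0 (SE 0.15, 95% interval -0.15 to 0.66, limma adjusted p = 0.494).

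ID2 read 3.64 and 3.42 in mock and 4.53 and 4.5 in knockdown. Of the 4 ID genes it had the tightest pairs, and the groups stood apart. The means were 3.53 ± 0.158 (SD, n = 2) in mock and 4.51 ± 0.018 (SD, n = 2) in knockdown, a ratio of 1.28. Its log2 change of 0.35 (SE 0.13, 95% interval 0.02 to 0.69) had an unadjusted limma p of 0.0435 and an adjusted p of 0.276, and 26.1% of all probes kept had a change at least as large.

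ID3 read 1.15 and 1.6 in mock and 1.68 and 1.58 in knockdown. Mock replicate 1 was the low value, while mock replicate 2 fell between the knockdown arrays, so the groups overlapped. The mean ratio, 1.19, equalled that of ID1, but the log2 change of 0.27 had a wider interval (SE 0.21, 95% interval -0.28 to 0.82, limma adjusted p = 0.616).

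ID4 read 0.366 and 0.478 in mock and 0.408 and 0.372 in knockdown. Both knockdown signals lay inside the mock range. The log2 change was -0.10 (SE 0.18, 95% interval -0.59 to 0.39, limma adjusted p = 0.876), and it became 0.09 when mock replicate 2 was left out. The intervals of all 4 ID genes overlap, and whether ID4 differs from the other ID genes was not tested.

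**Figure D1:**
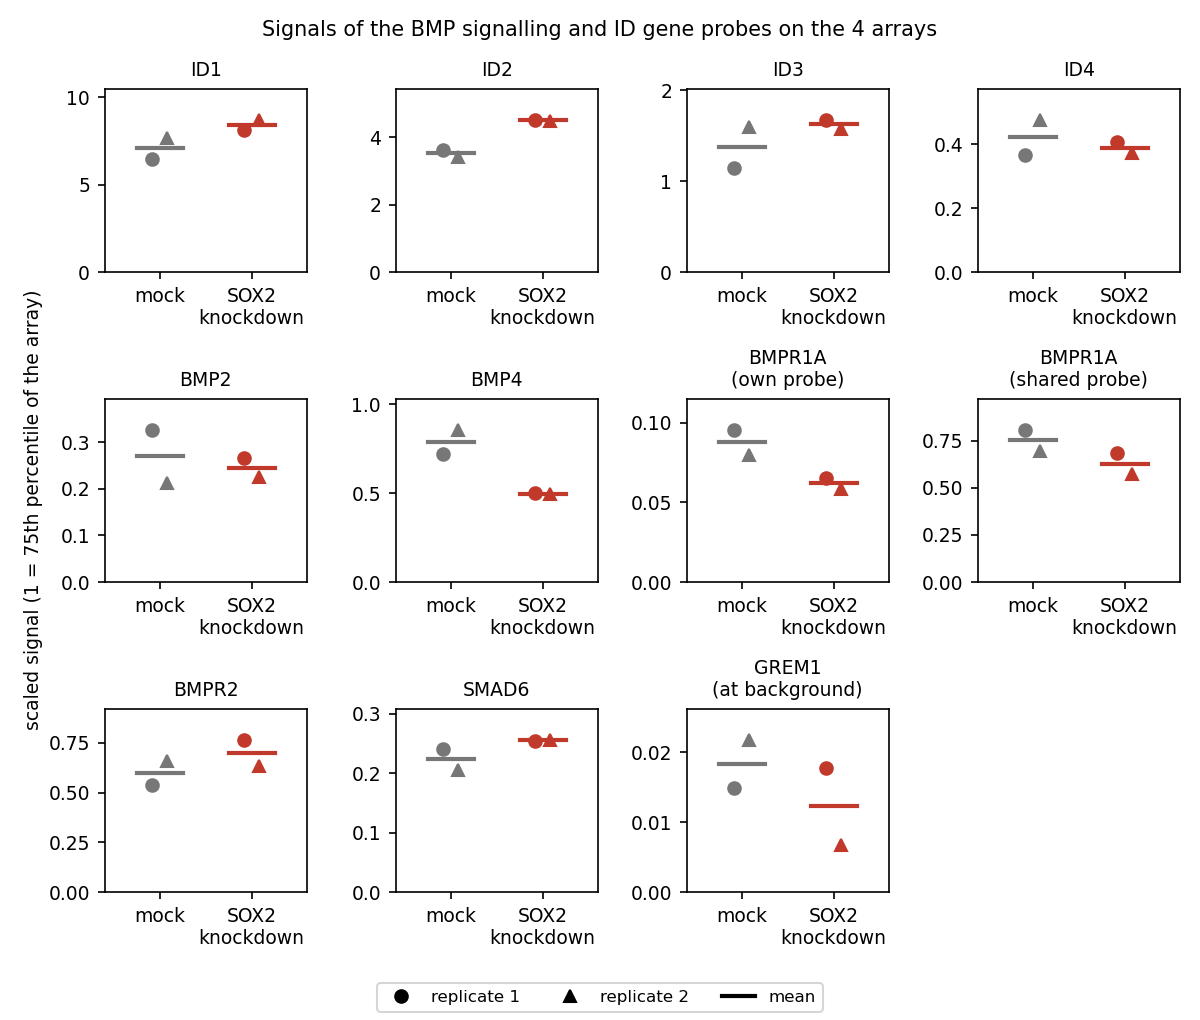
Scaled signal (1 is the 75th percentile of the array) of the 11 member probes on the 4 arrays, with grey for mock and red for SOX2 knockdown, a circle for replicate 1, a triangle for replicate 2 and a bar for the mean; each panel has its own linear axis from 0. BMP4 and ID2 show pairs that stand apart, ID3, ID4, BMP2 and BMPR2 overlap, and GREM1 is at background.

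The counts of members stand beside those of all probes. Of the 10 member probes kept, 0 were past 2-fold (2.61% of all probes kept) and 1, BMP4, was past 1.5-fold (10.5%). An unadjusted limma p under 0.05 was found for 3 of them, BMP4, ID2 and the BMPR1A probe of its own, against 17.1% of all probes. In limma with Benjamini-Hochberg adjustment, 0 members passed 0.05 (0% of all probes) and 0 passed 0.1 (1.13%). The groups did not overlap with knockdown higher for ID1, ID2 and SMAD6, 3 of the 10 probes (21.2% of all probes), and with knockdown lower for BMP4 and both BMPR1A probes, again 3 of 10 (25.8%). The log2 changes of the members were above 0 for 5 probes and below 0 for 5, with a median of 0.04 against 0 over all probes kept.

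**Figure D2:**
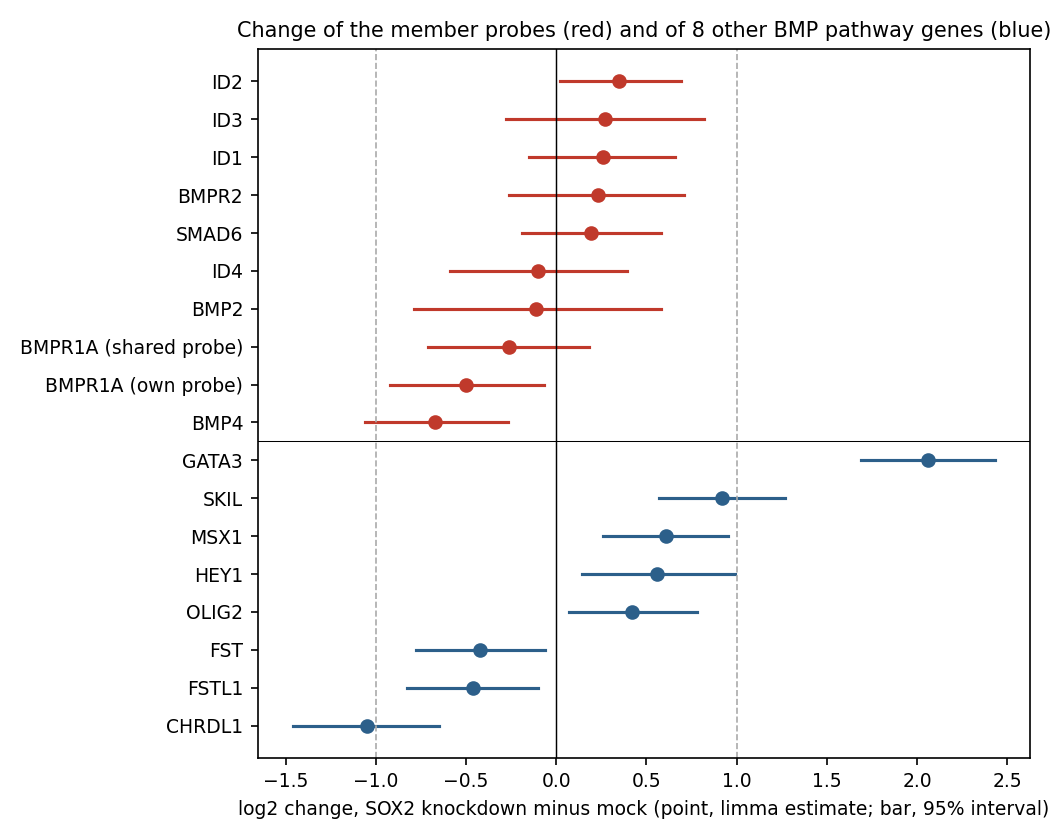
Log2 change (SOX2 knockdown minus mock) of the 10 kept member probes (red) and of 8 further BMP pathway genes (blue), with the limma estimate as a point and its 95% interval as a bar; dashed lines mark 2-fold. Among the members the intervals of BMP4, the BMPR1A probe of its own and ID2 lie off 0, whereas GATA3 at 2.06 and CHRDL1 at -1.05 are the points beyond 2-fold. The 8 blue genes were picked by an unadjusted limma p under 0.05 on these same arrays. That choice fixes that their intervals lie off 0.

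**Figure D3:**
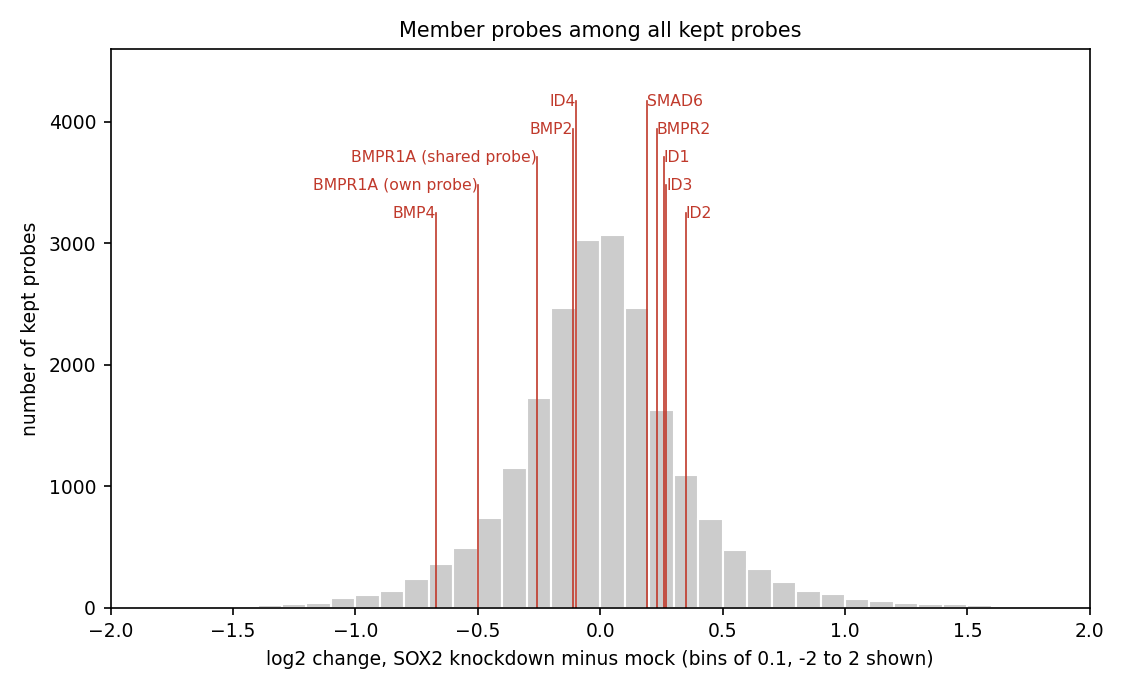
Number of kept probes (vertical axis) in bins of log2 change (horizontal axis, SOX2 knockdown minus mock), grey, with the 10 member probes drawn as red lines. The members lie between -0.67 (BMP4) and 0.35 (ID2), inside the range of the 21256 probes.

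Beyond the members, lists by role held a further 66 genes of the BMP route on the arrays, with 72 probes, of which 48 were kept. Among these probes 1 was past 2-fold higher (GATA3) and 1 past 2-fold lower (CHRDL1), 5 had an unadjusted limma p under 0.05 with a higher signal and 3 with a lower one, and 0 had an adjusted p under 0.05. Over all probes kept the shares were 2.61% past 2-fold and 17.1% with such an unadjusted p, both in either direction. The counts by role are to be read against these. Members included, the counts by role were as follows. For the ligands 7 of 13 probes were kept and BMP4 was the only 1 with an unadjusted p under 0.05. For the receptors 6 of 8 were kept, with the BMPR1A probe alone under that limit. Co-receptors (2 of 5 probes kept) and the receptor and common SMADs (4 of 5) had none. Of the BMP-responsive targets 13 of 15 probes were kept. Among these, 4 (ID2, HEY1, MSX1 and GATA3) had an unadjusted p under 0.05, against 17.1% of all probes in either direction. All 4 were higher after knockdown, and no share for 1 direction is given. The lists were chosen with earlier results of these data known, and a shift of a role was not tested.

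GATA3, a transcription factor gene induced by BMPs in several lineages, read 0.396 and 0.347 in mock and 1.52 and 1.57 in knockdown. The pairs lay far apart, with a mean ratio of 4.16 and a log2 change of 2.06 (SE 0.14, limma adjusted p = 0.064). Its adjusted p depended on the processing, being 0.0696 with quantile normalization, 0.0132 with a variance trend, 0.00839 with normexp, 9.16e-10 with median scaling and 7.87e-10 with the ratios the authors deposited, where limma in the last 2 settings used 1 variance for all probes. MSX1, a homeobox target of BMPs in the dorsal neural tube, read 0.546 and 0.501 in mock and 0.794 and 0.8 in knockdown, 1.52 times the mock mean (limma adjusted p = 0.147). HEY1, a bHLH repressor gene that responds to both Notch and BMP signals, read 1.65 and 1.68 in mock and 2.73 and 2.22 in knockdown, 1.48 times the mock mean (limma adjusted p = 0.207). Of the 13 target probes kept, 6 had groups that did not overlap with knockdown higher (21.2% of all probes). They were these 3, ID1, ID2 and the dimmer probe of GATA2 (1.15 times the mock mean). The brighter GATA2 probe went the other way, at 0.831 times, and its groups overlapped. With knockdown lower there were 2 (25.8%), namely DLX5 at 0.804 and ATOH8 at 0.918 times the mock mean. GATA3, MSX1 and HEY1 are named for an unadjusted limma p under 0.05 on these same arrays, which favours groups that do not overlap. GATA2, DLX5 and ATOH8 are named outside that rule, after their values were seen.

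Among the intracellular attenuators, where all 9 probes were kept, only SKIL had an unadjusted p under 0.05. SKIL, which encodes the SMAD co-repressor SnoN, read 0.21 and 0.196 in mock and 0.395 and 0.372 in knockdown. These pairs were tight and apart, at 1.89 times the mock mean with a log2 change of 0.92 (SE 0.13, limma adjusted p = 0.102). TOB1, an antiproliferative protein that also restrains SMAD signalling, read 2.1 and 2.11 in mock and 2.51 and 2.28 in knockdown, a ratio of 1.14 (limma adjusted p = 0.584).

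Of the 18 probes of extracellular antagonists and modulators 10 were kept. Among these, 3 had an unadjusted p under 0.05, against 17.1% of all probes in either direction. All 3 were lower after knockdown, and a shift of the role was not tested. CHRDL1, a chordin-like protein that binds BMPs, read 0.465 and 0.391 in mock and 0.212 and 0.2 in knockdown, a ratio of 0.481 with a log2 change of -1.05 (SE 0.15, limma adjusted p = 0.105). With normexp its ratio was 0.621, no longer past 2-fold. Its limma adjusted p was 0.112 with quantile normalization, 0.0581 with a variance trend and 0.0554 with normexp. With median scaling it was 0.00769 and with the ratios the authors deposited 0.00972, where limma in both settings used 1 variance for all probes. FST, or follistatin, which binds activins and some BMPs, read 9.86 and 10.7 in mock and 7.96 and 7.37 in knockdown, a ratio of 0.747 (limma adjusted p = 0.236). FSTL1, a follistatin-like secreted protein, read 1.84 and 1.78 in mock and 1.4 and 1.24 in knockdown, a ratio of 0.728 (limma adjusted p = 0.219). BAMBI, a decoy receptor without a kinase domain that is induced by BMPs, read 13.3 and 17.9 in mock and 18.7 and 19.4 in knockdown. Its groups did not overlap, but the gap within the mock pair exceeded the gap between groups, and the ratio was 1.22 (limma adjusted p = 0.516).

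**Figure D4:**
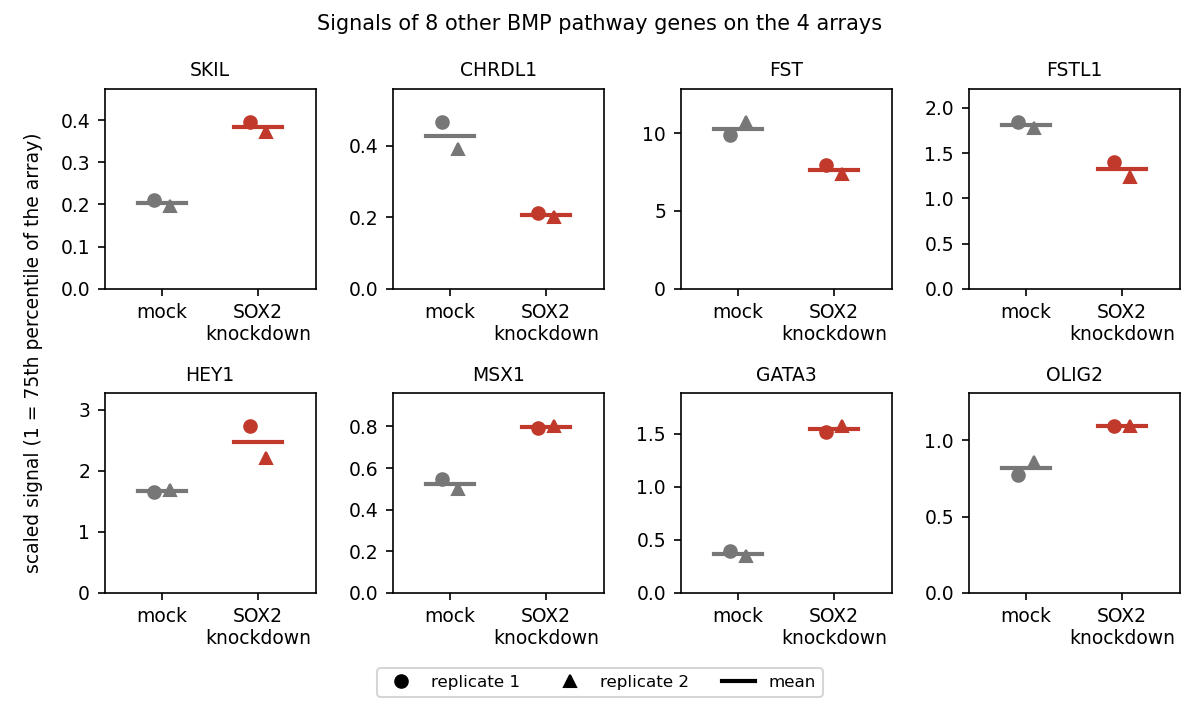
Scaled signal (1 is the 75th percentile of the array) of 8 BMP pathway genes that are no members and had an unadjusted limma p under 0.05, with grey for mock, red for SOX2 knockdown, a circle for replicate 1, a triangle for replicate 2 and a bar for the mean; each panel has its own linear axis from 0. In all 8 panels the groups do not overlap, and the distance is largest for GATA3, at 4.16 times the mock mean. The 8 genes were picked by that p on these same arrays, which favours groups that do not overlap. Over all probes kept, groups did not overlap with knockdown higher for 21.2% and with knockdown lower for 25.8%.

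The bHLH partners that ID proteins bind showed 1 gene under an unadjusted p of 0.05 among 7 kept of 10 probes. That was OLIG2, an oligodendrocyte lineage factor also known from glioma, which read 0.772 and 0.858 on the mock arrays and 1.09 on each knockdown array, 1.34 times the mock mean (limma adjusted p = 0.235). TCF4, an E protein partner, read 5.42 and 5.97 in mock and 4.67 and 3.86 in knockdown, a ratio of 0.749 (limma adjusted p = 0.299). BMP8B, a ligand, read 2.55 and 1.81 in mock and 1.56 and 1.83 in knockdown, and its groups overlapped at a ratio of 0.777. ACVR1, a type I receptor, read 3.28 and 3.31 against 3.81 and 3.54, a ratio of 1.12 (limma adjusted p = 0.644). ENG, a co-receptor, read 0.32 and 0.517 against 0.318 and 0.367, and its groups also overlapped. SMAD4, the common partner of the receptor SMADs, read 1.87 and 1.89 in mock and 1.84 and 1.57 in knockdown, a ratio of 0.908 (limma adjusted p = 0.734).

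The probes whose pattern over the 4 arrays was nearest to that of BMP4 were sought among 15477 others with S/N over 3 on all arrays, by the distance between log2 signals centred on their own mean. RIPK3, a kinase of necroptosis, was nearest at a distance of 0.009, with signals of 0.53 and 0.624 in mock and 0.362 and 0.361 in knockdown. NUCB1, a Golgi calcium-binding protein, followed at 0.02 and LOC116236, as the array names it, at 0.024. Over only 4 arrays in 2 groups such nearness describes the arrays and no more.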

How the data were processed

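Total RNA of LN229 cells was labelled with biotin and measured on Human Genome Survey arrays of Applied Biosystems, 1 sample per array. Groups came from the source names in the labels and replicate numbers from the titles. The scanner files deposited by the authors give normalized and raw intensity columns per feature, with flags. Per the file headers the S/N is a column of its own, used here as a score of signal over its error. The value table that the authors deposited holds a linear ratio per probe and array, relative to the median of the probe, and served as an alternative. Software versions and flag meanings are not given in the sources used here.

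Single probes were used, whereas the methods average by gene ID, which was an alternative. Of 33096 gene probes on each array of 37842 features, 210 were left out because an array flagged them at 5000 or above. Signals were divided by the 75th percentile of the array (6.06 and 6.88 for mock, 6.74 and 5.96 for knockdown), floored at 0.01 of it and put on the log2 scale. A probe was kept if both arrays of either group had S/N over 3. Fold is the ratio of linear replicate means, with the 2-fold cutoff of the methods, and p-values come from limma 3.58.1 in R 4.3.3 (lmFit and eBayes, no block, two-sided, Benjamini-Hochberg over all probes kept), tested on simulated data. An exact permutation of 2 against 2 arrays cannot pass 0.05 and was not used.

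The members and gene lists were chosen with earlier results of these data known. Named genes are SOX2, all members, listed pathway genes past 2-fold or with an unadjusted p under 0.05, the gene with the brightest kept probe of each role, and the 3 genes nearest to BMP4. Of 77 listed genes 76 were matched by symbol or RefSeq synonym (all but GDF6). No gene coordinates are given for probes, as the files name no genome build, and promoter windows are those of RefSeq on GRCh38.p14. Same-numbered samples were checked for pairing. Their deviations from the group means correlated at r = -0.484 over 21256 probes, so the numbers were not taken as pairs. The negative sign means that mock replicate 1 tended to deviate with knockdown replicate 2, and mock replicate 2 with knockdown replicate 1. The main fit does not model this shared deviation, and its source was not tested. Alternatives covered scaling, background correction, floor, filters, gene level, variance model, the replicate block and each array left out; the assay-normalized signal and a crossed pairing were chosen after seeing the data. No slide or scan was shared by arrays, so no such block was run.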

Additional observations from a re-analysis of the deposited data

How the results depend on the processing

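Across 18 alternatives the log2 change of each kept member probe held its direction, except for BMP2 and ID4. BMP2 ranged from -0.42 to 0.2 with single arrays left out, and ID4 from -0.29 to 0.09. The alternatives in floor, S/N filter, variance trend, replicate block and crossed pairing left every member log2 change as it was. Direction could therefore not turn in those settings. With both arrays of each group in use, no member passed an adjusted p of 0.05, and in most such settings 0 of all probes did. BMP4 ranged from -0.79 to -0.54 (adjusted p from 0.0543 with normexp to 0.657), ID2 from 0.31 to 0.4 (0.147 to 0.876) and the BMPR1A probe of its own from -0.63 to -0.17 (0.155 to 0.824). With single arrays left out ID1 ranged from 0.13 to 0.38, ID3 from 0.03 to 0.51, BMPR2 from 0.08 to 0.37, SMAD6 from 0.08 to 0.31 and the shared BMPR1A probe from -0.39 to -0.13. At 1.5-fold 1 member probe was called in place of 0. Of the pathway probes 2 were past 2-fold, against 1 with normexp, 5 at 1.5-fold and 3 to 4 with single arrays left out.

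Over all probes the count past 2-fold was 554, against 146 with normexp, 363 with a floor of 0.05, 302 where all 4 arrays had to exceed S/N 3, 1373 without an S/N filter, 2234 at 1.5-fold and 782 to 1192 with single arrays left out. The count at an adjusted p under 0.05 was 0, against 823 with median scaling, 758 with the ratios of the authors, 298 with normexp, 287 with a variance trend and 5 where all 4 arrays had to exceed S/N 3. With median scaling and with those ratios the prior degrees of freedom of limma were infinite (2.44 with the 75th percentile), so all probes shared 1 variance. For the other settings the cause was not tested. With the replicate block 0 probes passed, members included, and the same held with the crossed pairing. Where an array was left out, the lone array of its group was assumed to vary like the other group. With 2 arrays per group, and GREM1 at background, changes smaller than these intervals could not be resolved.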
